A study of Mus musculus with 6 samples.

Results

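The 83 genes described here encode proteins of the cytoplasmic ribosome. They were the features, of 32285 in the deposited gene list, whose symbols were Rpl or Rps followed by a number (with a few suffixes), or Rplp0, Rplp1, Rplp2 or Rpsa, leaving out symbols of pseudogenes that carry "-ps". By symbol, 48 belong to the large subunit, 3 to the stalk and 32 to the small subunit, and GENCODE lists all 83 as protein coding. They were followed through nuclei, cell classes and smaller barcodes taken as background droplets. The data were 6 single-nucleus RNA sequencing (snRNA-Seq) libraries of the prelimbic area (PL) of the medial prefrontal cortex of C57BL/6 male mice.

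The cytoplasmic ribosome is built from ribosomal RNA and ribosomal proteins in the nucleolus and works in the cytoplasm, where the small subunit reads the mRNA and the large subunit joins amino acids. The stalk proteins, encoded by Rplp0, Rplp1 and Rplp2, recruit the translation factors to the large subunit. Ribosomal protein mRNAs are short, abundant and translated in the cytoplasm, and most begin with a C followed by a run of pyrimidines, the 5′ terminal oligopyrimidine (TOP) motif, through which growth signals set their translation together. In nuclei, spliced cytoplasmic mRNA is scarce, so these transcripts are commonly read as a sign of cytoplasmic RNA.

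Offspring of dams with a running wheel from postnatal day 2 to 21 (Run) were compared with offspring of dams in standard cages (Sed), both then group housed (GH) or, in part, socially isolated from weaning (SI). Cohort 1 held a RunGH and a SedGH library from males that had been through the tube test of social dominance, the Run males ranked at the top and the Sed males at the bottom of their group. Cohort 2 held RunGH, SedGH, RunSI and SedSI libraries from males without behavioural tests. Each library pooled the tissue of 3 males from different mothers, so each condition had 1 library in a cohort and the spread between single mice cannot be seen. The labels give an age of P21, where the study's methods describe adults. Values listed for the 6 libraries below are in the order RunGH and SedGH of cohort 1, then RunGH, SedGH, RunSI and SedSI of cohort 2.

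A nucleus was a barcode with 500 to 4000 genes, at most 1% of unique molecular identifiers (UMIs, each marking 1 RNA molecule) from mitochondrial genes, and a minimum of UMIs set for each library. This left 8163, 5142, 9936, 5826, 8531 and 4997 nuclei. Background droplets were the barcodes ranked after 45000 and up to 90000 by UMIs, which were taken to hold mostly free RNA and debris. In cohort 1 their median was 626 and 698 genes in RunGH and SedGH, so many passed the limit of 500 genes. There the UMI minimum set them apart from nuclei. In cohort 2 their median was 57 to 223 genes, so the background was not a like set in both cohorts. Libraries of cohort 1 had more UMIs per nucleus (6407 and 6988) than those of cohort 2 (1925 to 4583), and their background droplets were also larger, with 889.5 and 1109 UMIs against 63.1 to 246 in cohort 2. Any 2 libraries shared 5 to 22 barcodes called as nuclei. Cell classes were named from markers in clusters and are "like" the type they are named for; each named cluster expressed at least 3 of its markers, but in some, pyramidal ones among them, no marker stood among the 10 leading genes. Slc17a7, the vesicular glutamate transporter of pyramidal neurons, had a median level over libraries of 230.7 CPM (UMIs scaled to an equal total in each sample) in pyramidal nuclei and 67.3 in inhibitory nuclei, and Gad2, which makes GABA, 4.95 and 224.6.

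Sequence around the transcription start is shown for members that the results below turn on: a pair of stalk genes, some of the members with large and with small gaps between nuclei and background, and 1 member whose Run difference varied by cohort. RefSeq (GRCm38.p6) gave promoters for 63 of the 83 members; Rplp1 and Rps29, which had the largest gaps, are named only. Each line holds 17 bases before the annotated start and 13 bases from it on, and capitals mark the longest unbroken run of C and T counted from 10 bases before the start.
Rplp0 (chr5:115559450-115559479, plus strand): tcgtcttcgggTTTCgaggaccgcctggtt
Rplp2 (chr7:141447634-141447663, plus strand): actgcgtcagcgTCTTCCTTTCgccgccgg
Rpl39 (chrX:37085210-37085239, minus strand): cccctaagctccgcctctagcgaCTTCTTC
Rpl37 (chr15:5116596-5116625, plus strand): gtagtttCCTgggcggaagcttatccacag
Rpl38 (chr11:114668563-114668592, plus strand): gaagcggaagcctcgTTCTTTCCCCgttct
Rpl15 (chr14:18270974-18271003, minus strand): ttgtgggagaaagCCTTCTTCCTTTCCTCT
Rpl6 (chr5:121204484-121204513, plus strand): cttggtcaCCTCCCgtcattgcttatagac
Rpl5 (chr5:107900511-107900540, plus strand): tttctcacgtcgCTTgcgtgctggtggtgc
Rpl7l1 (chr17:46782644-46782673, minus strand): cggtgaggCTgcgcaagcgcagtagctgaa

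A run of at least 8 pyrimidines within 10 bases of the start was found in 22 members with a promoter (34.9%) and in 9.25% of the 27025 genes with one. Over the whole promoter, from 250 bases before to 50 after the start, CCGGAAG, the core bound by ETS family factors, stood on either strand in 41.3% of members and 9.93% of genes. The letters CTTTC on the transcribed-sense strand stood in 65.1% and 37.9%, and TATAAA in 9.52% and 9.77%. The members shown include both kinds: Rpl15 and Rplp2 carry long runs, while Rpl7l1 and Rpl5 have none of 8 bases there. A match is only a match of letters, and annotated starts can lie some bases from the true start.

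Ribosomal protein mRNAs were a small part of the RNA of nuclei and a larger part of the RNA of background droplets. The members took 0.0685, 0.0618, 0.356, 0.261, 0.388 and 0.286% of the UMIs of nuclei. In background droplets they took 0.203, 0.0989, 3.81, 3.96, 4.54 and 5.01%. Exact 95% binomial intervals ran from 0.0678 to 0.0692% in nuclei and from 0.201 to 0.204% in background for RunGH of cohort 1, and they cover counting error only. The background share was 2.96 and 1.60 times the share in nuclei in cohort 1, and 10.7 to 17.5 times in cohort 2. Above 100 UMIs the same order held along the size of the barcodes in RunGH of cohort 2. There the members took 3.77% of the UMIs of barcodes with more than 100 and up to 300 UMIs and 0.152% of those with more than 10000. Smaller barcodes of this library held 1.61 to 2.93%. In SedGH of cohort 1 the lowest share, 0.0338%, was that of barcodes with 31 to 100 UMIs, beside 0.0525% above 10000. That bin held only 371 barcodes and 20687 UMIs, so its share rested on very few member UMIs.

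**Figure D1:**
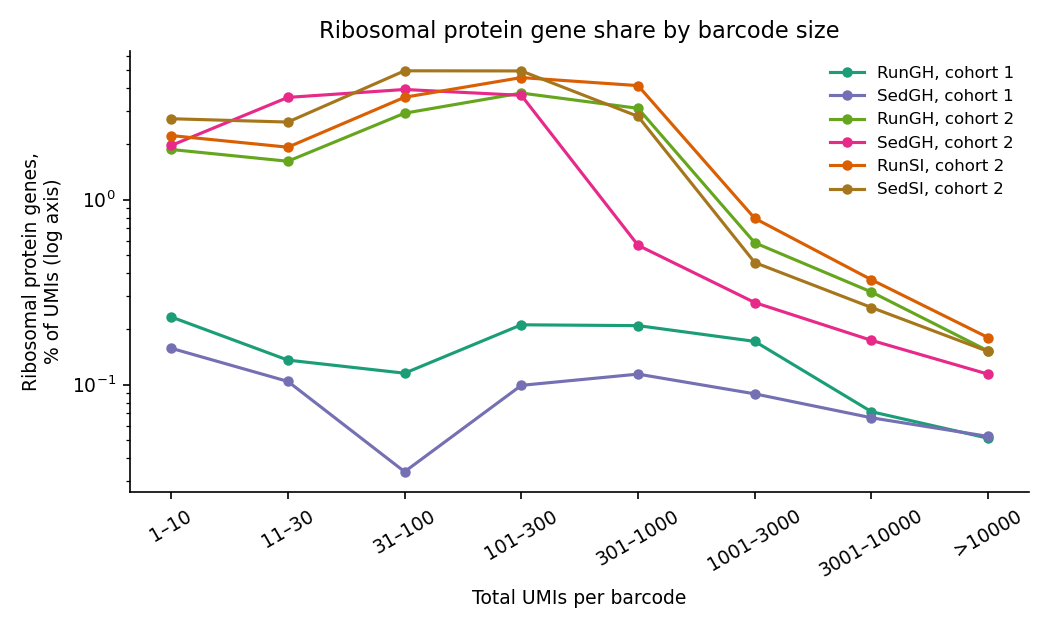
Share of UMIs that came from the 83 members (%, log axis) by the number of UMIs in a barcode (log axis), 1 line for each of the 6 libraries. The shares of cohort 2 reach 3.77 to 4.97% among the small barcodes and fall below 0.2% among the largest. Those of cohort 1 stay between 0.0338 and 0.232%, the lowest from a bin of only 20687 UMIs.

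Counted per droplet, a nucleus carried 4.39, 4.32, 13.8, 5.02, 17.8 and 11.9 member UMIs. A background droplet carried 1.80, 1.10, 7.87, 2.5, 11.2 and 5.78, which is 25.4 to 62.8% of what a nucleus carried. Total UMIs differed far more, since a background droplet held only 2.79 to 15.9% of the UMIs of a nucleus. Mitochondrially encoded RNA, made in mitochondria and so outside the nucleus, moved with the members. It took 0.0157 to 0.308% of UMIs in nuclei and 0.0780 to 4.50% in background droplets. Nuclei were limited to 1% mitochondrial UMIs, and without that limit the mitochondrial share of nuclei was 0.0157 to 0.318% and the members' shares of nuclei were 0.0685, 0.0618, 0.362, 0.261, 0.395 and 0.286%.

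Tested gene by gene within libraries, 80 of the 81 members with enough UMIs were lower in nuclei than in background and none was higher, with edgeR's quasi-likelihood test and Benjamini-Hochberg adjustment over 17377 genes at 0.05. Of all genes, 29.1% were called lower and 27.5% higher. The members' median log2 fold change was -2.96, against 0.07 over all genes. All 32 small subunit members, all 3 stalk members and 45 of 46 tested large subunit members fell. The median was -2.95 in the small subunit, -3.07 in the stalk and -2.89 in the large subunit. The members not tested were Rpl10l and Rpl39l, the testis paralogs of Rpl10 and Rpl39, with 1 and 2 UMIs in all nuclei.

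The size of the gap depended on the cohort. With cohort 1 alone, a comparison chosen after seeing the data, 73 members were lower, 1 was higher and the median was -1.23, beside 16.0% of genes lower. With cohort 2 alone, all 80 members tested were lower at a median of -3.70, beside 41.4% of genes. The difference between the cohorts' gaps was itself tested and 80 of 81 members were called, all with the deeper gap in cohort 2, at a median difference of -2.30 (26.9% of genes were called in that direction and 24.8% in the other). Each cohort had its own processing, depth, behavioural history and size of background droplets, which cannot be told apart.

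Rplp1, a stalk gene on chromosome 9 from 61913284 to 61914542, showed the largest gap. Its level in nuclei was 12.8, 6.93, 84.3, 61.5, 99.5 and 64.1 CPM, and in background 66.1, 29.6, 1199, 1268, 1464 and 1632 CPM. Every background value of a library was above its nuclear value, and the log2 fold change was -3.48 (SE 0.39, adjusted p = 0.00143). Others with large gaps were Rps29 (-3.32), Rpl39 (-3.30) and Rpl37 (-3.28), a mix of both subunits.

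The other stalk genes, and Rpsa, a small subunit protein also known as the laminin receptor, had smaller gaps than these. Rplp0 (chromosome 5, 115559467 to 115563727) had 2.89, 1.89, 20.4, 11.7, 19.0 and 12.4 CPM in nuclei and 8.45, 4.55, 242.6, 196.4, 248.9 and 255.6 CPM in background, with a log2 fold change of -3.07 (SE 0.47). The change of Rplp2 was also -3.07 (SE 0.48), and that of Rpsa was -3.19 (SE 0.41). In none of these 4 genes did a library have a higher level in nuclei than in its background.

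At the other end, 5 members were nearest to an equal level or above it. Rpl3l, the striated muscle paralog of Rpl3, was the only member not called: it had 0.306, 0.362, 0.804, 0.802, 0.767 and 0.773 CPM in nuclei, from 115 UMIs in all, and a log2 fold change of 0.37 (SE 0.27, adjusted p = 0.304). Rpl7l1, a relative of Rpl7 that takes part in large subunit assembly, had 7.48, 7.96, 17.9, 19.3, 19.6 and 21.1 CPM in nuclei and 9.74, 7.07, 35.2, 34.9, 33.6 and 34.1 CPM in background. Its log2 fold change was -0.51 (SE 0.16, adjusted p = 0.0241), a much smaller gap than that of Rpl7 itself, which had a background level of 242.9 to 297.6 CPM in cohort 2 against 15.5 to 21.7 CPM in nuclei.

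Rpl6, Rpl15 and Rpl5 followed, with log2 fold changes of -1.87 (SE 0.43), -1.96 (SE 0.66) and -1.96 (SE 0.39). Rpl5 binds 5S ribosomal RNA and, with Rpl11, the p53 regulator Mdm2. Rpl15 had 26.0 and 29.0 CPM in nuclei of cohort 1 against 25 and 16.7 CPM in background, so its gap was absent or turned round there, and with cohort 1 alone it was called higher in nuclei (log2 0.44, adjusted p = 0.0147). In cohort 2 it had 40.7 to 55.6 CPM in nuclei and 369 to 442 CPM in background. Rpl22, which has a paralog Rpl22l1, was at -1.99 (SE 0.52) and Rpl22l1 at -2.46 (SE 0.47). In SedGH of cohort 1 the log2 ratios of Rpl6 (0.13) and Rpl22 (0.33) were above 0, while that of Rpl5 was -0.18.

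**Figure D2:**
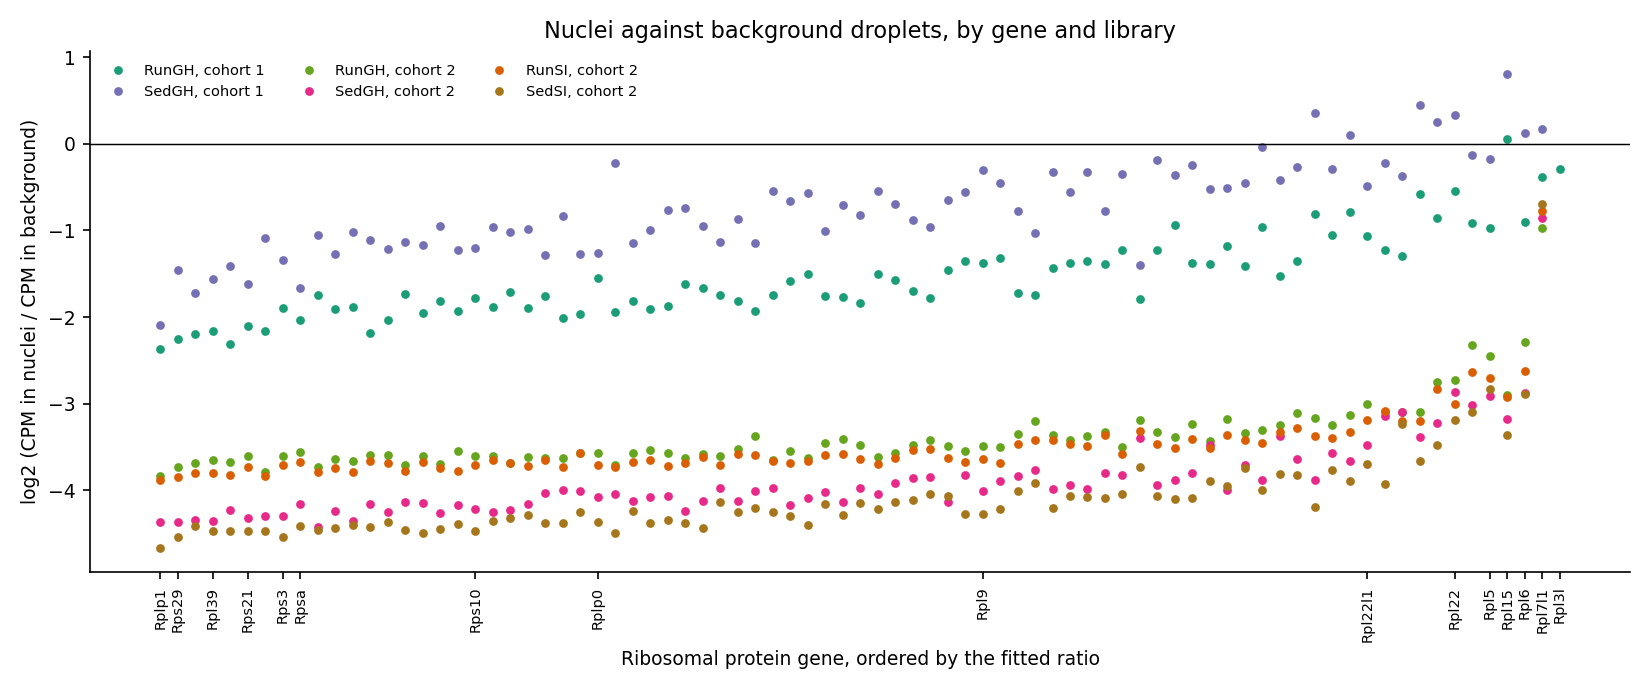
Log2 ratio of CPM in nuclei over background droplets (vertical axis) for each member tested (horizontal axis, ordered by the fitted value, with names for some members described in the text), with 1 point for each library that had enough UMIs for a ratio. In all 80 members with a ratio in all 6 libraries, both points of cohort 1 sit above those of cohort 2, and Rpl7l1 and Rpl3l stand at the right end, nearest to an equal level. The share of all genes separated in this way was not counted. By the test of the cohort difference in the gap, 26.9% of genes were called in that direction and 24.8% in the other.

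Position in this order was only loosely tied to gene structure. Over the 81 members, Spearman's rho of the fitted ratio was 0.10 with gene length, 0.11 with transcript length, 0.14 with the number of exons and -0.11 with the mean level in nuclei. These are descriptions over genes that share the same libraries.

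Other gene groups of the same process did not all follow the members. Of 25 translation factors and other TOP mRNAs, such as Eef1a1 and Tpt1, 24 were lower in nuclei (median log2 -1.97). Nuclear-encoded genes of oxidative phosphorylation had 82 of 87 lower (-2.46), mitochondrial ribosomal proteins 67 of 78 lower and 1 higher (-1.44), and mitochondrially encoded genes 13 of 13 lower (-3.48). Ribosome biogenesis genes, whose proteins act in the nucleolus, had 13 of 43 higher and 14 lower (-0.27), shares of 30.2 and 32.6% that are near those of all genes (27.5 and 29.1%). RNAs kept in the nucleus had 6 of 9 higher and none lower (0.81). Malat1, the most abundant of them, was not called: it took 28020, 30670, 93770, 112500, 94760 and 116900 CPM in nuclei and 41330, 32720, 89370, 145000, 78400 and 100100 CPM in background, higher in nuclei in 3 of the 6 libraries.

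Members with a high mean level in nuclei were Rpl6 (87.4 CPM), Rpl41 (59.0), Rplp1 (54.9) and Rpl27a (54.8); these are scaled counts of 3′ reads and not levels per length. The order of members was kept between nuclei and background of a library (Spearman's rho 0.77 to 0.93 over 80 or 81 members, which share libraries). Between nuclei of the cohorts it was looser (0.53 to 0.72) than within cohort 1 (0.92) or cohort 2 (0.92 to 0.98). The paralogs were low beside the gene each resembles, with Rps27l at 2.32 and Rpl3l at 0.636 CPM, except Rpl22l1 at 17.9 and Rpl7l1 at 15.5 CPM.

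Many members have near-identical processed copies in the genome, so their counts are partly uncertain. In the last 400 bases of the transcript, 62 of the 83 members shared at least 1 window of 50 bases with another annotated gene, and 21 shared none. Over all 83 members the median was 45.3% of windows, and 39 members shared over 50%. For 15 members the other gene is itself in the deposited gene list, and for 7 of them this held for over 50% of windows: Rpl9, Rpl10, Rps27, Rpl35, Rpl36a, Rps18 and Rpl41. Reads from such windows can be lost or assigned to the copy. The 5 listed ribosomal protein pseudogenes with "-ps" symbols held 1577 UMIs, against 3550133 of the members, over all barcodes. This count cannot show reads that were lost. It also leaves out Rps27rt, Gm2000, Gm11361 and Gm10076, the genes sharing most with Rps27, Rpl35, Rps18 and Rpl41.

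Between cell classes, the members' UMIs per nucleus changed less than their total RNA did. In RunGH of cohort 2 pyramidal nuclei carried 13.8 member UMIs (exact 95% Poisson interval 13.8 to 13.9), inhibitory nuclei 13.4 (13.2 to 13.6), astrocyte nuclei 13.1 (12.6 to 13.7) and nuclei of oligodendrocyte precursors, the lowest, 12.8 (12 to 13.7). Among pyramidal, inhibitory, astrocyte, oligodendrocyte, precursor and microglial nuclei, the highest class was 1.23, 1.5, 1.08, 1.34, 1.07 and 1.12 times the lowest. Total UMIs per nucleus, by contrast, differed 2.06 to 2.52 times between the highest and lowest of these classes. With endothelial and vascular leptomeningeal (VLMC) nuclei, at most 20 of a class in a library, the ratio for the members became 1.24, 1.63, 1.11, 1.34, 1.07 and 1.12; the 18 endothelial nuclei of SedGH in cohort 1 carried 4.89 member UMIs each. These intervals cover counting error only, and 9 microglial nuclei of SedGH in cohort 2 were too few to be used.

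**Figure D3:**
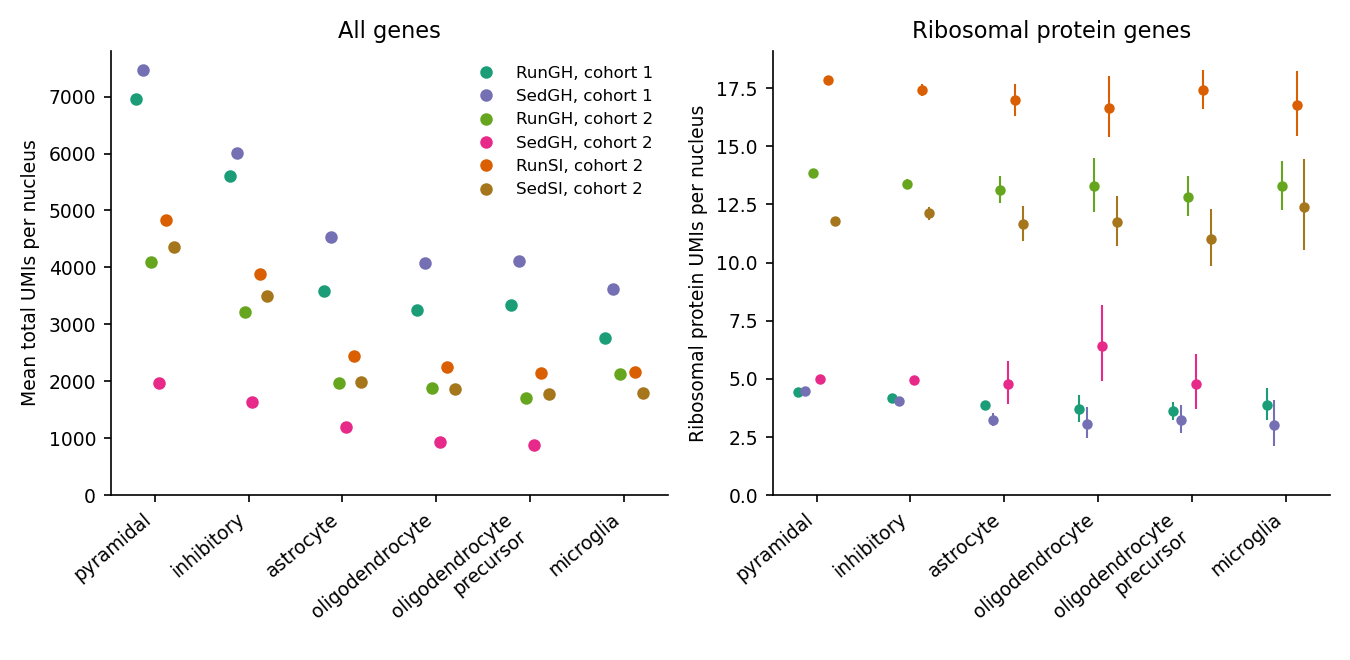
Mean total UMIs per nucleus (left) and member UMIs per nucleus (right, with exact 95% Poisson intervals that cover counting error only) by cell class, 1 point for each of the 6 libraries. Within a library the highest of the 6 classes plotted is at most 1.5 times the lowest for the members, and 2.06 to 2.52 times for total UMIs.

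As a share of a nucleus's RNA, the members were lowest in pyramidal nuclei. Their share there was 0.0641, 0.0601, 0.337, 0.253, 0.369 and 0.271%. In oligodendrocyte precursors it was 0.108, 0.0786, 0.753, 0.537, 0.812 and 0.623%. Median depth in the same order was 6303, 6815.5, 3603, 1694, 4267 and 3803 UMIs in pyramidal nuclei, and 3035, 3759.5, 1552, 837.5, 1924 and 1732 UMIs in oligodendrocyte precursors.

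In the test of classes against pyramidal nuclei within libraries (edgeR, 6171 genes, 72 members tested), astrocytes had 60 members higher and none lower, at a median log2 difference of 0.74. Of all genes, 33.8% were called higher and 35.1% lower there. Oligodendrocyte precursors had 46 higher (median 0.74, beside 20.8% of genes higher and 26.8% lower), oligodendrocytes 32 (0.78, beside 21.5 and 27.4%) and microglia 21 (0.65, beside 23.1 and 25.7%), with none lower in these classes. Inhibitory nuclei had 15 higher and 1 lower (0.16), beside 26.9% of genes higher and 25.9% lower. Members were thus called higher in inhibitory nuclei no more often than all genes. Mitochondrially encoded genes were also higher in astrocytes, 10 of 10 tested with a median of 1.00. In inhibitory nuclei 3 of 10 were called higher, with a median of 0.23, a share near that of all genes. The part of free RNA and of depth in these differences was not tested.

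The size of the difference varied from member to member. In inhibitory nuclei Rpl30 was higher by 0.68 (SE 0.12, adjusted p = 2.76e-06), with 16.0, 16.2, 21.2, 8.44, 28.9 and 21.5 UMIs per 100 nuclei against 7.78, 7.47, 18.3, 6.92, 24.8 and 16.7 in pyramidal nuclei, above them in each library. Rpl11, the partner of Rpl5, was higher by 0.51 (SE 0.10) and Rps20 by 0.42 (SE 0.11). Rpl27a was the only member called lower, by -0.43 (SE 0.13, adjusted p = 0.00558), with 8.25, 5.97, 23.0, 7.63, 31.1 and 23.5 UMIs per 100 inhibitory nuclei against 18.4, 22.6, 29.8, 11.8, 37.3 and 27.2 in pyramidal nuclei.

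In astrocytes the largest differences were Rpl36a at 1.54 (SE 0.30), Rps24 at 1.22 (SE 0.15) and Rpl39 at 1.19 (SE 0.27). Rps24, which exists in several splice forms, had 9.27, 8.89, 34.4, 9.09, 44.9 and 33.8 UMIs per 100 astrocyte nuclei and 7.87, 6.84, 26.3, 8.61, 34.2 and 21 in pyramidal nuclei. Oligodendrocytes were led by Rps27a, which is made as a fusion with ubiquitin (1.41, SE 0.27), Rpl24 (1.35, SE 0.30) and Rpl11 (1.31, SE 0.31). Oligodendrocyte precursors were led by Rplp2 (1.52, SE 0.27), Rpl39 (1.48, SE 0.35) and Rpl35 (1.45, SE 0.40), and the called members of microglia by Rpl35 (1.61, SE 0.52), Rpl18 (1.28, SE 0.38) and Rpl21 (1.28, SE 0.27). Microglia and oligodendrocytes rested on at most 48 nuclei in a library, and in oligodendrocytes, precursors and microglia 0 to 3 of 42 members tested were called with cohort 1 alone, 1 of them lower (in precursors). In astrocytes cohort 1 alone called 12 of 42 members higher and 2 lower, beside 25.6% of genes higher and 29.8% lower. Leaving out RunSI lowered the counts of oligodendrocytes, precursors and microglia to 21, 22 and 11, and the count in inhibitory nuclei lay between 4 without RunSI and 31 without SedGH of cohort 2. The shares of all genes called with a library left out are not given here.

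Within pyramidal nuclei the members also followed depth less than the rest of the RNA did. When the pyramidal nuclei of a library were split into 4 equal bins by total UMIs, from the shallowest to the deepest bin total UMIs per nucleus rose 3.46, 2.92, 3.2, 3.46, 3.33 and 3.57 times. Member UMIs rose 2.14, 2.25, 1.44, 1.71, 1.45 and 1.84 times, and mitochondrially encoded UMIs 1.32 to 1.67 times. In RunGH of cohort 2, for example, the 4 bins carried 11.3, 13.3, 14.5 and 16.3 member UMIs at 2168, 3140, 4172 and 6930 total UMIs.

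The members differed from each other in this. In cohort 2, Rplp1 rose 1.23 times between these bins, while Rpl7l1 rose 2.30, Rpl22 2.06 and Rpl5 2.04 times, at a median of 1.48 over 81 members and 3.34 for total UMIs. In cohort 1, Rplp1 rose 1.15 times and Rpl7l1 3.25 times, at a median of 2.13 over 79 members and 3.22 for total UMIs. Members with the larger gap between nuclei and background tended to rise less, with a Spearman's rho of 0.69 in cohort 1 and 0.83 in cohort 2 between the rise and the log2 ratio. Both measures use the same nuclei, so this is a description across genes.

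**Figure D4:**
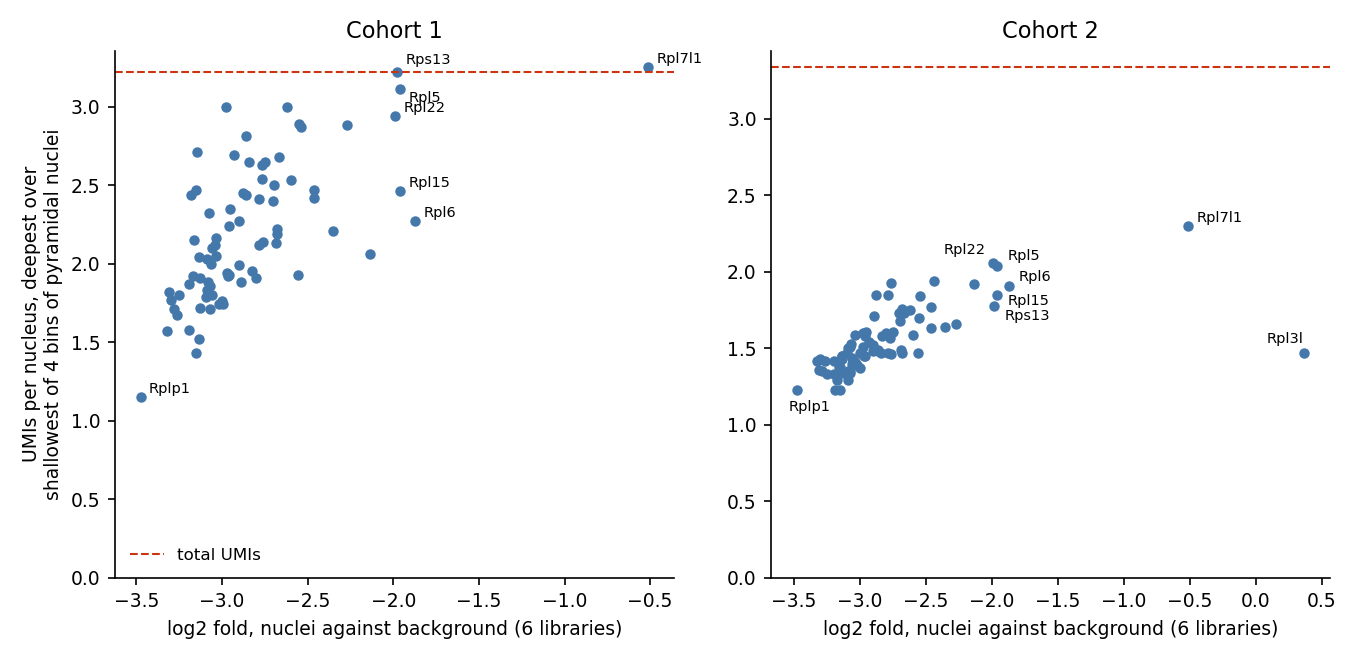
Rise of each member from the shallowest to the deepest of 4 equal bins of pyramidal nuclei (UMIs per nucleus, linear axis from 0) against its fitted log2 fold change between nuclei and background, by cohort, with the rise of total UMIs as a dashed line. Rplp1 is at the low end in both cohorts, and Rpl7l1 has the largest rise at 3.25 in cohort 1 and 2.30 in cohort 2.

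The members differed widely between the cohorts. In nuclei, 79 of 81 members were higher in cohort 2 and none was lower, at a median log2 difference of 2.25, beside 21.6% of all 18205 genes called higher and 18.7% lower. Without scaling factors for composition (TMM), 4650 genes were higher and 2104 lower in place of 3936 and 3397, and 80 members were higher. Without the UMI minimum for nuclei the members' median was 1.39, with 80 called higher and 1 lower. Dropping the minimum raised the barcodes taken as nuclei from 8163 and 5142 to 82376 and 103391 in cohort 1. Their medians were then 1146 and 1264 UMIs, beside 917 and 1112 in background droplets, so this setting mixes barcodes of near that size into cohort 1. In SedGH of cohort 2 the number went only from 5826 to 5827. In background droplets all 80 members tested were higher in cohort 2, at a median of 4.34, beside 35.5% of genes higher and 36.0% lower. Cohort stands for all that differed between the experiments, and these cannot be told apart.

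Rps21, a small subunit protein, was among the members with a large cohort difference in nuclei. It had 8.80 and 5.57 CPM in cohort 1 and 76.1, 56.0, 102.3 and 60.6 CPM in cohort 2, so the cohorts did not overlap, with a log2 difference of 3.07 (SE 0.14, adjusted p = 0.000508). Rps12 (3.07), Rpl37 (3.07) and Rpl9 (2.97) had differences of a like size. Rpl4 was the least changed at 0.23 (SE 0.20, adjusted p = 0.379), with 8.49 and 7.96 CPM in cohort 1 and 14.3, 7.58, 14.6 and 10.7 CPM in cohort 2, which overlapped. The other member not called was Rpl3l (1.12, SE 0.36, adjusted p = 0.0527).

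Translation factors and other TOP mRNAs had 16 of 25 genes higher in cohort 2 nuclei and none lower (median 0.82), oxidative phosphorylation genes 75 of 86 higher and 1 lower (1.62) and mitochondrially encoded genes 11 of 13 higher and 1 lower (2.43). Ribosome biogenesis genes had 12 of 43 higher and 8 lower (0.07), which is 27.9 and 18.6% beside 21.6 and 18.7% of all genes. The nucleus-retained RNAs had 2 of 9 higher and 6 lower (-0.76). Their summed share of UMIs was nonetheless higher in cohort 2, at 11.2 to 13.4% of nuclei against 4.42 and 4.93%, as Malat1 alone took most of it.

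For the question of the study, whether the early maternal environment leaves a mark on PL gene expression, no member was called between Run and Sed. With cohort and housing in the model, none of 18205 genes was called (0.0%) with edgeR's quasi-likelihood test, and 44 of the 81 members and 1518 of all genes had an unadjusted p under 0.05. The members' log2 differences were nevertheless above 0 in 76 of 81, at a median of 0.32 against -0.00 over all genes. DESeq2 called 7 members higher, beside 0.297% of genes. With cohort 2 alone, chosen after seeing the data, 48 members were called higher and none lower, at a median of 0.39, beside 5.1% of genes called higher and 8.53% lower.

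Rps10, a small subunit protein encoded on chromosome 17 from 27630418 to 27636669, had the smallest p. Its level in nuclei was 7.38 in Run and 4.68 CPM in Sed in cohort 1, 52.8 and 32.9 CPM in group-housed mice of cohort 2, and 52.8 and 35.8 CPM in isolated mice. Run was above Sed in each of the 3 pairs, and the log2 difference was 0.57 (SE 0.09), which did not pass the test (edgeR, adjusted p = 0.584). Rpsa had 16.1 against 12.8, 65.3 against 39.7 and 63.5 against 39.5 CPM in the same pairs, a difference of 0.52 (SE 0.09, adjusted p = 0.584). Rps3, which also takes part in DNA repair, had 4.17 against 3.06, 35 against 20.8 and 35.9 against 23.3 CPM (0.55, SE 0.10, adjusted p = 0.584).

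The stalk genes differed by 0.61 (Rplp0), 0.59 (Rplp1) and 0.16 (Rplp2). Rpl9 and Rpl21, which the study's own tables list, were at 0.47 (SE 0.13) and 0.33 (SE 0.12), with adjusted p of 0.589 and 0.592 in the edgeR test. The study tested single nuclei within cell types by a Wilcoxon test, so these values from summed counts of all nuclei are a different measure. The 5 members nearest to an equal level between nuclei and background had differences of -0.14 (Rpl3l), -0.16 (Rpl7l1), 0.05 (Rpl6), 0.13 (Rpl15) and 0.05 (Rpl5).

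By pairs of libraries, 58 of 80 members were higher in Run in cohort 1, 77 in group-housed mice of cohort 2 and 79 in isolated mice, with median log2 differences of 0.18, 0.49 and 0.46. Of 15281 genes, 46.5, 64.5 and 64.1% were higher in Run in these pairs, at medians of -0.02, 0.12 and 0.08. In all 3 pairs Run was above Sed for 57 of the 80 members, beside 22.6% of 15281 genes. The mitochondrially encoded share of nuclei moved the same way, at 2.35, 2.66 and 1.90 times the Sed share in Run, while the members' share was 1.11, 1.37 and 1.36 times. UMIs per nucleus in Run were 0.917, 2.02 and 1.11 times those in Sed in these pairs, and UMIs per background droplet 0.802, 3.27 and 2.13 times. The part of the mitochondrially encoded share and of depth in the members' differences was not tested.

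**Figure D5:**
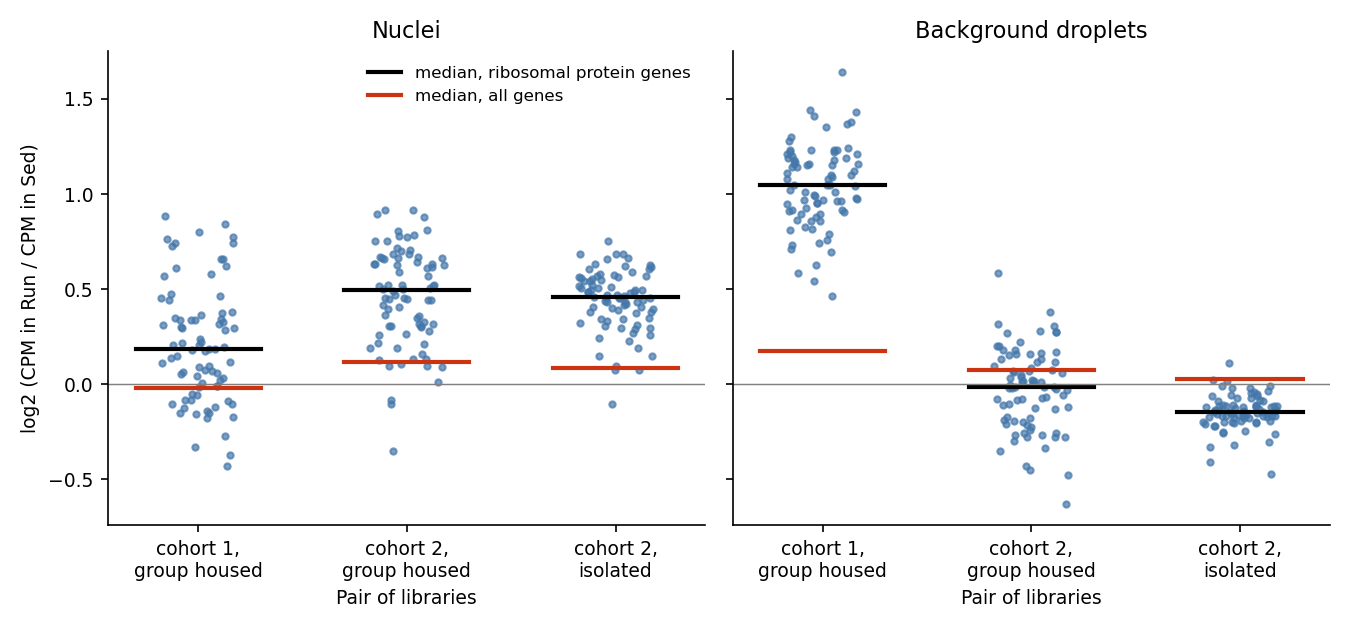
Run less Sed difference in log2 CPM of each member in the 3 pairs of libraries, for nuclei and for background droplets, with black lines at the median of the members and red lines at the median of all genes. In nuclei most members lie above 0 in each pair, and in background all 80 lie above 0 in cohort 1 but only 38 and 3 do in the pairs of cohort 2, beside 78.7, 59.4 and 53.8% of all genes.

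In background droplets the pairs differed in sign. All 80 members were higher in Run in cohort 1 (median 1.05), but 38 of 80 in group-housed and 3 of 80 in isolated mice of cohort 2 (medians -0.02 and -0.15). Of 12423 genes, 78.7% were higher in Run in cohort 1 (median 0.18), and 59.4 and 53.8% in the pairs of cohort 2. Only 1 member was higher in Run in all 3 pairs, beside 26.5% of 12423 genes. The model over all background droplets called no member and none of 15352 genes (0.0%), with 0 members and 474 genes at an unadjusted p under 0.05, and DESeq2 called no member. The median of 0.18 in this model turned to -0.14 with cohort 2 alone, which called 12 members lower, beside 6.32% of genes lower and 4.94% higher. It turned to -0.74 with barcodes of 11 to 100 UMIs as background. There 49 of 75 members and 319 of 1549 genes had an unadjusted p under 0.05, and no member was called. That set held only 54 and 36 member UMIs in RunGH and SedGH of cohort 1, but 181058 in SedGH of cohort 2, from 62699 barcodes. It is therefore nearly empty in cohort 1 and not a like background across libraries. Without any 1 library of cohort 2 the median of the model was 0.34 to 0.39, and with group-housed libraries alone 0.48, again with no member called. For the difference of the Run effect between nuclei and background no member was called (median 0.06), with 0 members and 623 of 17377 genes at an unadjusted p under 0.05 and no call with DESeq2 either. Leaving out either library of cohort 1 gave 66 members with a higher Run effect in nuclei, beside 5.37% of genes without RunGH, and taking the barcodes of 11 to 100 UMIs as background gave 76, beside 4.01%. Leaving out any library of cohort 2 gave no call and a median below 0, from -0.18 to -0.10.

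By cell class, pyramidal nuclei called 0 of the members and none of 17349 genes (0.0%) between Run and Sed, with Rps10 at 0.59 (SE 0.10), Rps3 at 0.56 (SE 0.11) and Rpsa at 0.51 (SE 0.10), each with an adjusted p of 0.647 in the edgeR test. At an unadjusted p under 0.05 there were 38 members and 1286 genes. DESeq2 called 1 member. Cohort 2 alone called 49 members higher, beside 5.68% of genes higher and 9.3% lower. PV interneurons called 0 of 79 tested members (median 0.35, 14 at an unadjusted p under 0.05), beside 0.115% of genes, and astrocytes 0 of 71 (median 0.47, 9 at an unadjusted p under 0.05), beside 0.109%. DESeq2 called none in these 2 classes. In these classes 7 of 11 and 4 of 9 mitochondrially encoded genes were called higher in Run, and none was without cohort in the model.

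Social isolation called no member and none of 18205 genes (0.0%), with 1 member and 155 genes at an unadjusted p under 0.05, and DESeq2 called none of them either, with 0 members and 59 genes at that p. The members' median was 0.13, with 76 of 81 above 0, against a median of -0.0016 over all genes. The share of all genes above 0 was not counted. Rpl35a, a large subunit protein, had the smallest p at a log2 difference of 0.29 (SE 0.12, adjusted p = 1.0 with edgeR), followed by Rps27a (0.25) and Rps21 (0.28). In background droplets the members' median was 0.32, against 0.012 over all genes. No member was called there, with 2 members and 216 of 15352 genes at an unadjusted p under 0.05, and DESeq2 called none. With cohort 2 alone, 24 members were called higher in isolated mice, beside 0.448% of genes, and 32 without RunGH and 31 without SedGH of cohort 1. Of all genes, 77 of 15475 were called higher and 12 lower without RunGH of cohort 1. Without SedGH of cohort 1 it was 76 of 15502 and 11. With 1 library of cohort 2 left out, the members' median in background ran from 0.01 without SedSI to 0.57 without RunSI. Housing varied only in cohort 2, so this comparison rests on 4 libraries.

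The Run effect differed between cohorts for 4 of 81 members, 2 in each direction, beside 2.88% of genes called with a larger and 6.51% with a smaller effect in cohort 2. At 2.47% in each direction, members were called no more often than all genes. Rpl10, which joins the large subunit late in its assembly, had 6.52 in Run against 8.43 CPM in Sed in cohort 1, 32.6 against 19.0 in group-housed and 31.6 against 23.8 CPM in isolated mice of cohort 2. Run was below Sed in cohort 1 and above it in both pairs of cohort 2, a difference of 0.82 between the effects (SE 0.21, adjusted p = 0.0223). For Rps2 it was 0.66 (SE 0.18, adjusted p = 0.0280). Rps12 and Rpl38 went the other way, by -0.70 (SE 0.19, adjusted p = 0.0343) and -0.61 (SE 0.18, adjusted p = 0.0409), as Run was further above Sed in cohort 1: Rps12 had 6.35 against 3.65 CPM there, and 49.0 against 42.9 and 53.8 against 44.7 CPM in cohort 2. These 4 calls rested on 1 residual degree of freedom, DESeq2 called none (5 members at an unadjusted p under 0.05), and the model without TMM factors called 12 members with a larger and 3 with a smaller effect in cohort 2, beside 9.4 and 6.4% of genes. Without the UMI minimum 7 members were called, all with a smaller effect in cohort 2 (708 of 18451 genes had a smaller and 100 a larger effect), Rpl10 and Rps2 were not called, and the median of the members turned from 0.16 to -0.21. That setting takes 82376 and 103391 barcodes of cohort 1 in place of 8163 and 5142, many of them near the size of background droplets. For Rpl10, 100% of the windows of its last 400 bases are also found in a listed pseudogene copy, so its counts are uncertain.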

How the data were processed

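Nuclei of pooled PL tissue were profiled by the authors in 6 libraries with the 10x Chromium 3′ V3 kit, and reads were counted against mm10, introns included. The submitters' processing notes name Cell Ranger 6.0.0, and the headers of the matrices an earlier release. What was deposited is the raw count of UMIs per gene for every barcode, with no calling of cells and no correction for free RNA. The libraries total 19134955 to 188952936 UMIs per library, with 1637 to 6250 UMIs in the median nucleus.

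The UMI minimum of a nucleus was the 99th percentile of the largest barcodes of its library divided by 10 (620 to 3156 UMIs). The cohorts were clustered apart without the members (scanpy 1.11.5, leidenalg 0.10.2, Pearson residuals of 3000 genes, 35 components, 20 neighbours, resolution 0.6), and clusters were named from at least 3 detected markers. No doublet caller was run; mixed clusters stayed unnamed and the upper limit of 4000 genes was kept. A class needed 10 nuclei in a library.

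Counts were summed per library and compartment or class and tested with edgeR 4.0.16 in R 4.3.3 (TMM, filterByExpr, quasi-likelihood, Benjamini-Hochberg over all genes tested, called under an adjusted p of 0.05). The model for nuclei held cohort, maternal environment and housing, with 2 residual degrees of freedom; nuclei against background was fitted within libraries with 5. The test scripts were tested on simulated data. DESeq2 1.42.0, no TMM, no filter on low counts, other definitions of nuclei and background, and leaving out each library were the alternatives. No condition was repeated within a cohort, so p-values do not measure the spread between pooled libraries of a condition. In the model for nuclei they rest on how the Run less Sed difference varied between the pairs of libraries. In the test of the Run effect by cohort they rest on how that difference varied with housing in cohort 2. Comparisons made within libraries rest on how the difference varied between libraries. Cohort was a block because the labels mark it; the cohort deviations of RunGH and SedGH correlated at 0.74 over 15281 genes.

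Named were the stalk genes and Rpsa, the 5 members highest in nuclei, the 5 members at each end of the nuclei against background order, up to 5 called members a direction or the 3 with the smallest p for the other comparisons in nuclei, up to 3 a direction for each class, the paralogs with the genes they resemble, and Rpl9 and Rpl21. Some results of this rule are not reported here. Rpl22 and the members compared with it in the depth bins were added after their values were seen. The members and lists were chosen with earlier results of these data known. Positions are those of GENCODE M21 on mm10. Other tools were matplotlib 3.10.9, pandas 2.3.3, scipy 1.17.1 and numpy 2.4.6 under Python 3.11.15.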

Additional observations from a re-analysis of the deposited data

Results flagged for a closer look

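The Run effect on 4 members differed between the cohorts by the test of that difference, 2 in each direction of 81 tested, beside 2.88% of all genes with a larger and 6.51% with a smaller effect in cohort 2. Members were thus called no more often than all genes (2.47% in each direction). The difference, cohort 2 less cohort 1 on the log2 scale, was 0.82 for Rpl10 and 0.66 for Rps2, and -0.70 for Rps12 and -0.61 for Rpl38. In the pairs of libraries, the log2 difference of Rps2 was -0.15 in cohort 1 and 0.81 and 0.49 in the group-housed and isolated mice of cohort 2, and that of Rpl38 was 0.76, 0.13 and 0.42. In background droplets Run was above Sed in cohort 1 for each of the 4 genes, by 0.74 to 1.43; in group-housed and isolated mice of cohort 2 the differences there were 0.07 and -0.41 for Rpl10, 0.28 and -0.08 for Rps2, -0.02 and -0.14 for Rps12, and -0.43 and -0.15 for Rpl38. The mitochondrially encoded share of nuclei was 2.35 times as high in Run in cohort 1 and 2.66 and 1.90 times in cohort 2. Its part in these differences was not tested.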

How the results depend on the processing

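Of the counts of called members, 160 under the alternatives stayed within 1.5 times the reported count and 45 did not. A count of 0 cannot fall, and a count near all members tested can barely rise. The 160 are therefore no measure of how firm the results are. Alternatives restricted to 1 cohort were chosen after seeing the data. For Run against Sed, with 0 members called, DESeq2 called 7 in all nuclei and 1 in pyramidal nuclei, cohort 2 alone called 48 in all nuclei, 12 in background droplets, 49 in pyramidal nuclei and 3 in PV nuclei, and no filter on low counts called 1 in PV nuclei. Leaving out 1 library gave 0 to 50 in all nuclei, 0 to 12 in background, 0 to 66 for nuclei less background, 0 to 48 in pyramidal and 0 to 3 in PV nuclei; the high counts came when RunGH or SedGH of cohort 1 was left out, which leaves cohort 2 to set the effect. Without RunGH of cohort 1, 1024 of 18611 genes were called higher and 1601 lower in all nuclei. In background 747 of 15475 genes were then higher and 873 lower. For nuclei less background 868 of 16160 were higher and 1538 lower. All-gene counts of such fits in pyramidal and PV nuclei are not given here. Background of 11 to 100 UMIs, a set with only 54 and 36 member UMIs in the libraries of cohort 1, gave 76 members for nuclei less background. The Run effect by cohort (4 members) had 0 with DESeq2, 15 without TMM and 7 without the UMI minimum (all lower, with Rpl10 and Rps2 lost), and could not be fitted with a library left out. Dropping the UMI minimum takes in many barcodes near the size of background droplets in cohort 1. Without the replicate block, that is without cohort in the model, 0 members were called for Run or isolation, as with it; over all genes, the 11 calls for Run in PV nuclei and 6 in astrocytes, mitochondrially encoded genes among them, fell to 0. For isolation in background droplets (0 members), cohort 2 alone called 24 and leaving out 1 library 0 to 32, the high counts without RunGH or SedGH of cohort 1. The cohort difference in the gap between nuclei and background was called for 34 members with background of 11 to 100 UMIs, all lower as in the reported model, at a median of -3.12 in place of -2.30, beside 376 of 14041 genes lower. That background was nearly empty of member UMIs in cohort 1.

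Against pyramidal nuclei, no filter on low counts gave 6 members in inhibitory nuclei, 9 in oligodendrocytes, 20 in precursors and 6 in microglia, of which 2 in inhibitory nuclei and 1 in microglia were lower. DESeq2 gave 3 in inhibitory nuclei. Without TMM there were 51 in inhibitory nuclei and 44 in microglia, all higher, beside 2614 and 2268 of 6171 genes higher and 1160 and 980 lower, with the median of all genes shifted to 0.16 to 0.45 over the 5 classes. Cohort 1 alone, with 42 members tested, gave 3, 14, 0, 3 and 1 (inhibitory, astrocyte, oligodendrocyte, precursor, microglia; 1, 2, 0, 1 and 0 of them lower) and cohort 2 alone 36 in inhibitory nuclei. Leaving out 1 library gave 4 to 31 in inhibitory nuclei, 21 to 37 in oligodendrocytes, 22 to 58 in precursors and 11 to 21 in microglia, the lowest without RunSI in each. All-gene shares for no filter, DESeq2, cohort 2 alone and the left-out libraries are not given here. These member counts therefore stand without a reference. In the fits, the only named gene that turned round was Rpl15 between nuclei and background, at 0.44 in cohort 1 alone. In the single library SedGH of cohort 1, other members also had a log2 ratio above 0. These were Rpl27a (0.45), Rpl10 (0.35), Rpl22 (0.33), Rps18 (0.25), Rpl7l1 (0.17), Rpl6 (0.13) and Rps2 (0.10). All the rest with a ratio there, apart from Rpl15, were below 0. With 1 library a condition in a cohort and few residual degrees of freedom, a missing call is no sign of equal levels, and in the smaller glial classes few UMIs per member limit the test.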

Other observations

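Barcodes with 10 or fewer UMIs, which enter no comparison, also held member RNA: 0.232 and 0.157% of their UMIs in RunGH and SedGH of cohort 1, and 1.87, 1.96, 2.22 and 2.74% in RunGH, SedGH, RunSI and SedSI of cohort 2. Of the 83 members, Rpl10l had 1 UMI in nuclei, in SedGH of cohort 1, and Rpl39l had 1 UMI each in RunGH and SedSI of cohort 2.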
